A study of Homo sapiens with 8 samples.

Results

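IVNS1ABP (ENSG00000116679.15) encodes the influenza virus NS1A-binding protein, and its splicing was followed here through every skipped-exon event that the deposited tables list under its symbol. There were 7 such events among 98244 in the HMLE TWIST table and 4 among 82355 in the MCF10A table, each on a different exon of its table, and the 4 recur among the 7. The gene was selected on the inclusion levels of HMLE TWIST, where 1 of its exons had the largest rise under emetine. The values in HMLE TWIST are therefore given as a description with no test, and tests are confined to MCF10A.

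MCF10A is a line of non-tumorigenic breast epithelial cells. HMLE TWIST is an immortalised breast epithelial line in which the transcription factor TWIST is overexpressed from a retroviral pBabe-TWIST insert, so all 4 of its libraries carry the transgene. Each line was kept for 24 hours with the solvent DMSO (control) or with 10 µM emetine, an alkaloid that blocks translation elongation. Polyadenylated RNA of 2 biological replicates per group, 8 libraries in all, was sequenced.

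The IVNS1ABP protein, also called NS1-BP or KLHL39, has an N-terminal BTB domain, which mediates protein contacts, followed by a BACK domain and C-terminal kelch repeats. It was found as a partner of the NS1 protein of influenza A virus and works with the RNA-binding protein hnRNP K in the splicing of a viral transcript. It has also been linked to the actin cytoskeleton and to the aryl hydrocarbon receptor. A cassette exon is one that can be joined into the mRNA or left out. Where its inclusion brings a stop codon into the reading frame ahead of later exon junctions, the transcript is of the kind that nonsense-mediated decay, a translation-dependent process, can degrade.

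The exon at the centre of these data is 141 nucleotides long and lies at chr1:185275617-185275757 (GRCh37, minus strand), between exons 7 and 8 of the coding transcript. GENCODE release 29 places it in 1 of the 9 annotated IVNS1ABP transcripts, IVNS1ABP-204, as exon 8 of 16, and that transcript has no annotated coding sequence (type processed transcript). Exon numbers below are those of the 15-exon coding transcript IVNS1ABP-202. The deposited exons were matched to the release by lengths and spacing, since the release uses another genome build, and all 11 listed events matched with their flanking exons at a single offset. The sequence is shown because it decides what inclusion does to the reading frame. It is given between the last 30 bases of exon 7 and the first 30 of exon 8, 5′ to 3′ as in the transcript sequences of that release, with stop codons in the reading frame of exon 7 in capitals.
Exon 7, last bases: ggagacagtctggaagagctgatggaagag
Alternative exon: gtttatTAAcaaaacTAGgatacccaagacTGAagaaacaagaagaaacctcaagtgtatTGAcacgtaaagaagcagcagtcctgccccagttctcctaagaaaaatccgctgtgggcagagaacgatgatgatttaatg
Exon 8, first bases: gttcaaaccttgtactactcagctgatcac

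The coding frame enters the exon after 219 codons, exactly between codons. The exon length is a multiple of 3, so exon 8 would keep its frame, but the first in-frame stop, TAA, begins at base 7 of the exon. In all, 4 in-frame stop codons lie within it. The reading frame is 642 codons long without the exon and 221 codons long with it. The stop lies 1150 bases ahead of the last exon junction of the transcript. A reading frame ended there would hold the BTB domain and lack the kelch repeats. Whether the transcript is degraded, or translated, was not measured.

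The series concerns RNA G-quadruplexes, structures built from runs of guanine, so the exon was searched for 4 GG runs separated by 1 to 7 bases of any kind, with overlaps allowed. There was no match on the strand of the transcript and none on the opposite strand. Among 1575 internal exons of the same length in the release, 22.3% held a match on their own strand and 25% on the opposite strand. Exon 7 held no match and exon 8 held 1. The trinucleotide GGG occurred in the exon at 1 position, and in 75.2% of the exons of that length. G and C made up 41.1% of its bases, against a median of 49.6%. No match means only that these letters are not in the exon. Its introns were not searched.

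The exon was rarely used in cells given DMSO and was used in most transcripts under emetine, in both lines. In HMLE TWIST its inclusion level was 0.0256 and 0.041 with DMSO and 0.934 and 0.958 with emetine. The inclusion level is the share of transcripts that hold the exon, estimated from junction reads after correction for the 2 junctions that inclusion offers. The 95% Wilson intervals of the controls ended at 0.0377 and 0.0579, and those of emetine began at 0.893 and 0.913. These intervals cover counting error only. The means were 0.0333 ± 0.0109 and 0.946 ± 0.0176 (SD, n = 2 each), a change of 0.913. This was the largest rise of all 30290 events with enough reads in HMLE TWIST, which is how the gene was chosen. The IVNS1ABP event with the next largest change there was that of exon 7, at -0.144, with 6 reads in its shallowest library.

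The exon was covered in MCF10A, with the same flanking exons, by at least 342 reads in each library. Its level was 0.0755 and 0.1 with DMSO and 0.775 and 0.719 with emetine, so the groups lay far apart. The means were 0.0879 ± 0.0175 and 0.747 ± 0.0401 (SD, n = 2 each), a change of 0.659. The quasi-binomial model of the read counts gave an adjusted p-value of 7.14e-119, and limma on the log2 odds gave 0.0145. The former rests on a spread between replicates shared by all events. With the event's own dispersion where larger, that model gave 0.0193 as the adjusted p-value. An exact permutation test of 2 against 2 libraries cannot go below p = 0.333. By size, the rise ranked 14 among the 25522 events tested in MCF10A, where the median absolute change was 0.0239.

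**Figure D1:**
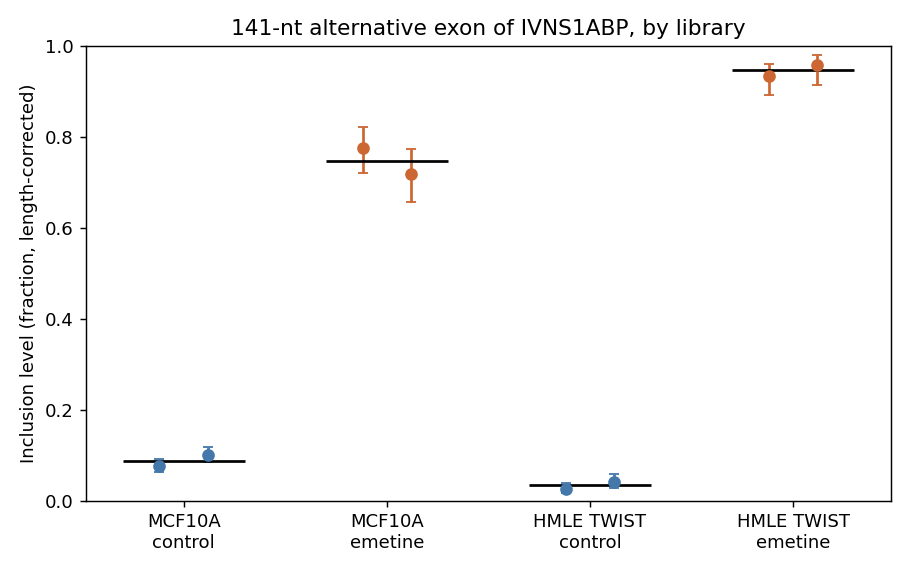
Inclusion level (fraction, corrected for length) of the 141-nucleotide exon in each of the 8 libraries, by line and treatment. Points are libraries with 95% Wilson intervals for counting error and horizontal lines are group means. Controls lie at or below 0.1 and emetine libraries at or above 0.719.

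In MCF10A 2 of the 4 listed events had enough reads in both forms to be tested, and 1 of the 2, that of the 141-nucleotide exon, was called changed. A call requires that the quasi-binomial model gives an adjusted p-value under 0.05 and that the level moves by at least 0.1, and 13.8% of all tested events met it, 8.37% towards higher inclusion. Groups without overlapping libraries made up 67.4% of all tested events. In HMLE TWIST 1 of the 7 events, that of the same exon, had enough reads in both forms, and no call is given there.

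The order of the 4 groups from low to high was HMLE TWIST control, MCF10A control, MCF10A emetine and HMLE TWIST emetine. No library of a group overlapped one of a neighbouring group. The share of all events with such separation between the lines was not counted. The HMLE TWIST values in this order are also those that chose the gene. The control means of the lines differed by little next to the step under emetine, and the emetine means lay on either side of 0.9. On the log2 odds scale, with 0.5 added to each count, the change was 4.94 in MCF10A, from -3.38 ± 0.318 to 1.56 ± 0.304. In HMLE TWIST it was 8.97, from -4.88 ± 0.488 to 4.09 ± 0.46 (SD, n = 2 each). The difference between the lines, 0.254 on the scale of the inclusion level, was not tested, because the value in HMLE TWIST chose the gene. Over the 49039 events with 20 reads or more in all 8 libraries, the median absolute difference between the lines was 0.00975. This set has no minimum for the rarer form, so it also holds events used always or never, which can hardly differ between the lines. Only 17 of the 49039 events, each in a different gene, rose by 0.5 or more in both lines.

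**Figure D2:**
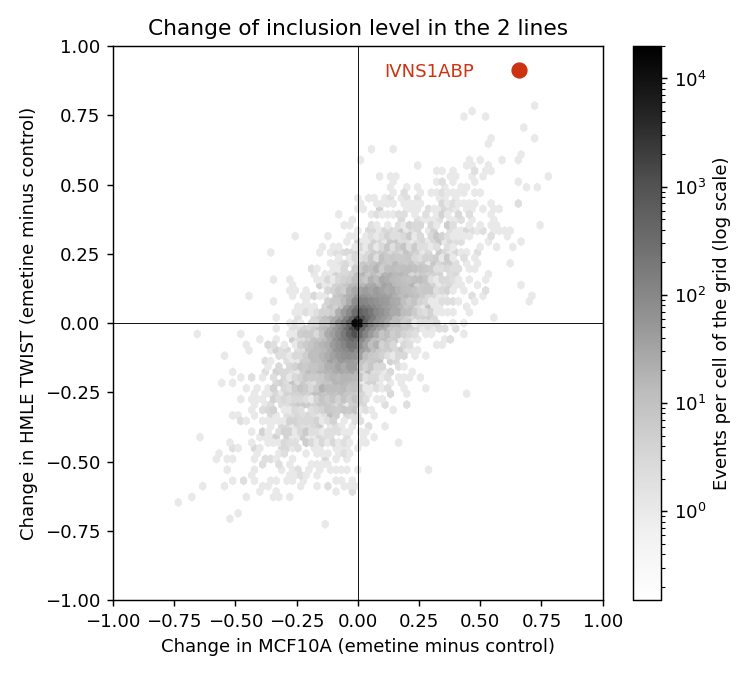
Change of inclusion level (emetine minus control) in MCF10A on the horizontal axis and in HMLE TWIST on the vertical axis for 49039 events, shaded by their number on a log scale. The red point is the 141-nucleotide exon of IVNS1ABP, at 0.659 and 0.913.

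The reads themselves show which forms moved. In MCF10A the junction from exon 7 straight to exon 8 had 698 and 606 reads with DMSO and 51 and 56 with emetine. The junctions of the 141-nucleotide exon had 114 and 135 reads with DMSO and 352 and 286 with emetine. So the skipping form was 12.2-fold lower in mean reads and the inclusion form 2.56-fold higher.

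In HMLE TWIST the direct junction had 476 and 363 reads with DMSO and 14 and 6 with emetine. The inclusion reads there were 25 and 31 with DMSO and 394 and 277 with emetine. The direct junction was 42-fold lower and the inclusion reads 12-fold higher in the mean. These are unscaled reads. The reads summed over all events ran from 78412292 to 83483642 per MCF10A library and from 90031966 to 91259363 per HMLE TWIST library. The median reads per event were higher under emetine, at 294 and 274 against 229 and 234 in MCF10A, and at 308 and 278 against 219 and 202 in HMLE TWIST. Under emetine the lines had similar unscaled inclusion reads, and the direct reads that were left were fewer in HMLE TWIST. The reads of exon 12 of the gene were also fewer there, at 466 and 356 against 611 and 616 in MCF10A. Similar inclusion reads thus do not mean an equal share of the reads of the gene.

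**Figure D3:**
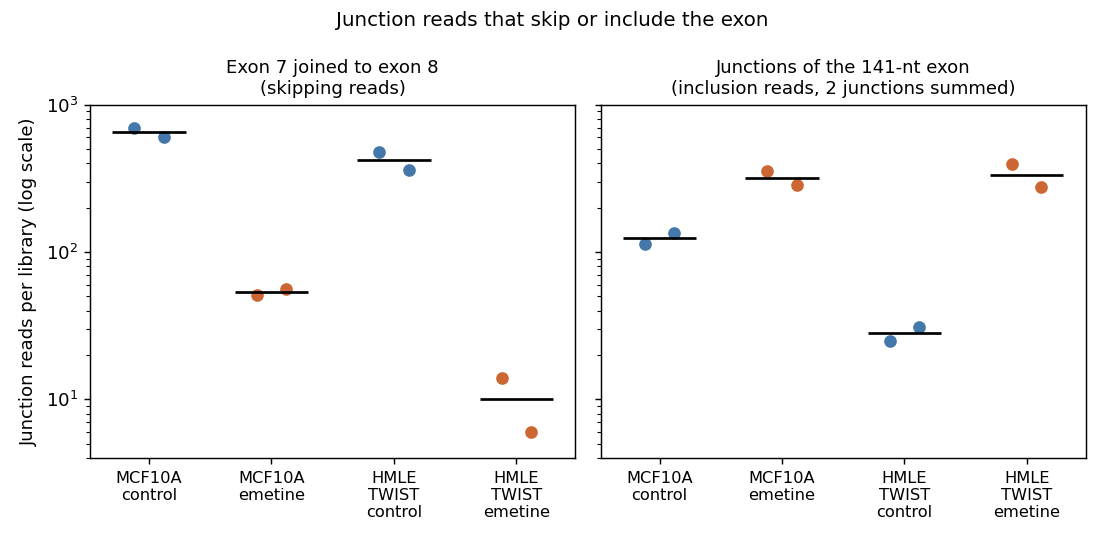
Junction reads per library on a log axis, for the direct junction of exon 7 to exon 8 (left) and for the 2 junctions of the 141-nucleotide exon together (right). Points are libraries and lines are group means. The direct junction is lowest under emetine in HMLE TWIST, at 14 and 6 reads.

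Exon 8 (108 nucleotides, chr1:185274668-185274775) is listed in HMLE TWIST only, and its counts show both routes into it. Its inclusion reads were 1067 and 782 with DMSO and 258 and 177 with emetine. An inclusion count is the sum over the exon's 2 junctions, and that from exon 7 is also counted as skipping of the 141-nucleotide exon. Taking it away left 591 and 419 reads for the junction of exon 8 to exon 9 with DMSO, and 244 and 171 with emetine. The direct route into exon 8 made up 0.805 and 0.866 of that number with DMSO and 0.0574 and 0.0351 with emetine. The route through the 141-nucleotide exon, at the mean of its 2 junctions, made up 0.0212 and 0.037 and then 0.807 and 0.81. Together both routes came to 0.827 and 0.903 in the controls and to 0.865 and 0.845 under emetine. The sum of the routes overlapped between the groups. Each single route did not, but the single routes are the reads of the event that chose the gene, so this is no separate result.

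**Figure D4:**
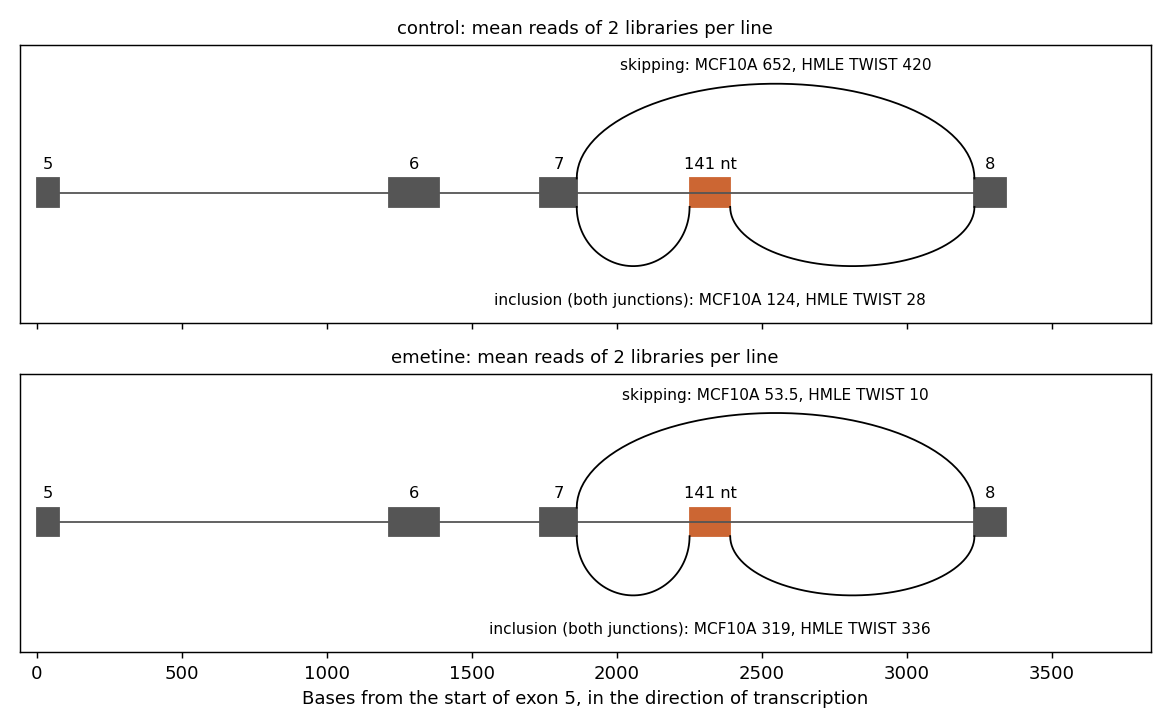
Exons 5 to 8 and the 141-nucleotide exon (orange), to scale, in bases from the start of exon 5 in the direction of transcription. Arcs are the junctions of the skipping form (above) and inclusion form (below), with mean reads of the 2 libraries per line. Under emetine the skipping form has 53.5 reads in MCF10A and 10 in HMLE TWIST.

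Exon 7 (126 nucleotides, chr1:185276146-185276271) was listed with exon 5 and exon 8 as its neighbours, an arrangement in which exon 6 is absent. In MCF10A its level was 0.991 and 0.993 with DMSO and 0.839 and 1 with emetine, a change of -0.0731. The quasi-binomial model gave an adjusted p-value of 0.0355 and limma 0.185, and the change was too small to be called. Without the second emetine library the change was -0.154 and the event was called. The skipping form, exon 5 joined to exon 8, had 3 and 2 reads with DMSO and 5 and 0 with emetine. The inclusion reads were 698 and 607 with DMSO and 52 and 56 with emetine.

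At most 1 of the inclusion reads in any library was not from the junction of exon 7 to exon 8. The event therefore shares nearly all of its reads with the skipping form of the 141-nucleotide exon and gives no second measurement of the gene. In HMLE TWIST the same event had 476 and 364 inclusion reads with DMSO and 14 and 6 with emetine, with 3 and 0 skipping reads in each group. Its level was 0.988 and 1 with DMSO and 0.7 and 1 with emetine.

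The other 5 listed exons were included in nearly every transcript of every library in which they were listed. They are exon 4 (170 nucleotides, chr1:185278135-185278304), exon 5 (76 nucleotides, chr1:185277932-185278007), exon 6 (174 nucleotides, chr1:185276621-185276794), exon 8, and exon 12 (127 nucleotides, chr1:185269349-185269475). Exons 6 and 12 were listed in both lines and exons 4, 5 and 8 in HMLE TWIST. The lowest level of any of them in any library was 0.99, for exon 4 in a HMLE TWIST control, and no library had more than 2 skipping reads. The rarer form had at most 3 reads over the 4 libraries of a line, so none was tested. Exon 6 was listed next to a longer form of exon 7 of 390 nucleotides (chr1:185275882-185276271). That form belongs to the annotated transcript IVNS1ABP-203 and shares its start with exon 7, so these counts do not separate the forms.

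The reads of these constitutive exons were fewer under emetine. For exon 12, well downstream of the switch, MCF10A had 1846 and 1807 reads with DMSO and 611 and 616 with emetine, a ratio of 0.336. The median ratio over 69271 events with 20 reads or more in each control was 1.13, and 6.07% of them had a lower ratio. In HMLE TWIST exon 12 had 1128 and 840 reads and then 466 and 356, a ratio of 0.418, against a median of 1.27 over 80526 events. There 5.91% had a lower ratio.

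Upstream of the switch, exon 6 had a ratio of 0.318 in MCF10A and 0.455 in HMLE TWIST, and exons 4 and 5 had 0.496 and 0.485. The event of the 141-nucleotide exon had the highest ratios, 0.48 in MCF10A and 0.772 in HMLE TWIST for both forms together. An included transcript offers 2 junctions and a skipped one 1. The switch thus raises the ratios of this event, and they do not show a milder decline. The event of exon 7 had the lowest ratios, 0.0863 and 0.0273, as its reads are those of the direct junction. These ratios come from junction reads of single events and were not tested. In bulk RNA, fewer cells that express a gene and less of its RNA per cell cannot be told apart.

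**Figure D5:**
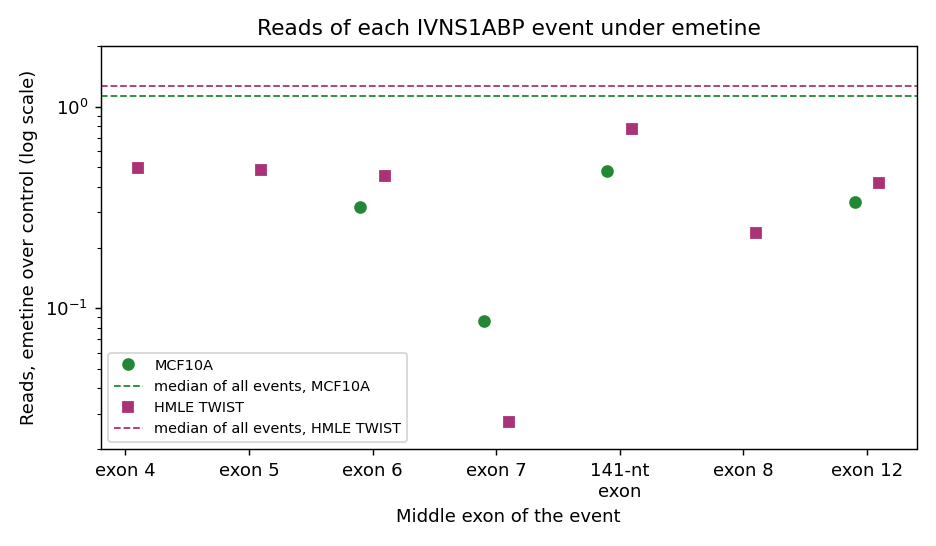
Reads of each IVNS1ABP event under emetine divided by those in the control (2 libraries summed, log axis), in the order of the exons. Circles are MCF10A and squares HMLE TWIST, and dashed lines are the medians over all events, 1.13 and 1.27. Every event of the gene lies below the median of its line.

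The intron ahead of the 141-nucleotide exon has 388 nucleotides and the one after it 841. Of the 25522 events tested in MCF10A, 15% had a shorter upstream intron and 26.4% a shorter downstream intron, and the medians were 2480 and 2340. The exon was longer than 69.5% of the tested exons. Both introns were thus shorter than the median of the tested events.

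Events of other genes were ranked by the mean absolute difference of inclusion level from this exon over the 8 libraries, among the 49039 events covered in all of them. This is a description of likeness with no test. The nearest was a 110-nucleotide exon of SAT1, which encodes the acetyltransferase that starts polyamine breakdown, at a mean difference of 0.0874. Its level was 0.0335 and 0.0282 in MCF10A with DMSO and 0.763 and 0.743 with emetine, and it was 0.0258 and 0.0108 and then 0.729 and 0.645 in HMLE TWIST. Next was a 137-nucleotide exon of DHX9, an RNA helicase, at 0.107, with mean levels of 0.0836 and 0.735 in MCF10A and 0.0593 and 0.564 in HMLE TWIST.

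The others were exons of CBWD1 at 0.109, RHBDD2 at 0.111 and TTC38 at 0.123. CBWD1 has near-identical paralogs, so reads may be split among them, and its shallowest library held 23 reads. For RHBDD2 the mean levels without and with emetine were 0.243 and 0.77 in MCF10A, and 0.121 and 0.769 in HMLE TWIST. For TTC38 they were 0.211 and 0.741, and 0.133 and 0.705. All 5 exons were higher in every emetine library than in every control of the same line. They were chosen for likeness to this pattern over the same libraries, so their separation is no separate result. Their emetine level in HMLE TWIST stayed below 0.8 in the mean, whereas that of IVNS1ABP was 0.946. IVNS1ABP was chosen for its rise in that line, so this contrast is no separate result. In MCF10A the emetine means were 0.753 for SAT1, 0.735 for DHX9, 0.658 for CBWD1, 0.77 for RHBDD2 and 0.741 for TTC38. That of IVNS1ABP was 0.747 there.

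The kelch relatives of IVNS1ABP, most of them BTB-kelch proteins that bring substrates to cullin ubiquitin ligases, were examined as a list of 37 genes. In MCF10A 15 of them had 43 tested events, of which 5 events (11.6%) in 4 genes were called, all towards higher inclusion. All tested events were called at 13.8%, and 2135 of those 3533 calls were also towards higher inclusion. With 5 calls, the shared direction is not read as a trait of the list. The median absolute change was 0.0237 in the list and 0.0239 overall. In HMLE TWIST, where no calls are given, the median absolute change over 50 events was 0.0403, and 0.0255 over all events with enough reads. The count of called events in MCF10A was 2 with limma and 1 with the event's own dispersion where larger, and it was 3 without the second control library.

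Among the called events of these relatives in MCF10A, the largest changes were those of KLHL42 and KLHL20, both adaptors of cullin-3 ligases. The 103-nucleotide exon of KLHL42 (chr12:27950180-27950282) had levels of 0.298 and 0.187 in MCF10A with DMSO and 0.825 and 0.715 with emetine, a rise of 0.528 (adjusted p-values of 1.72e-39 by the quasi-binomial model and 0.0246 by limma). In HMLE TWIST its level was 0.416 and 0.435 with DMSO and 0.535 and 0.538 with emetine. The 132-nucleotide exon of KLHL20 (chr1:173684662-173684793) rose in MCF10A from 0.307 ± 0.0945 to 0.675 ± 0.0124 (n = 2 each; adjusted p-values of 8.74e-10 by the quasi-binomial model and 0.0419 by limma). Exons of KLHDC10, a kelch protein of cullin-2 ligases, and of KLHL8 rose by 0.269 and 0.24 in MCF10A in the quasi-binomial model (adjusted p-values 3.1e-06 and 0.0221). The limma p-values of these exons, 0.104 and 0.0931, missed the threshold. In HMLE TWIST the mean level of the KLHL20 exon was 0.426 in the controls and 0.364 under emetine. That of KLHDC10 was 0.249 and 0.423 there, and that of KLHL8 was 0.92 and 0.886. The mean changes of KLHL20 and KLHL8 thus had the opposite sign in HMLE TWIST, and the differences between the lines were not tested. For KLHL8 the libraries of the groups overlapped there, at 0.913 and 0.927 with DMSO and 0.914 and 0.857 with emetine. Its shallowest HMLE TWIST library held 39 reads, so no reversal is read from it.

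The proteins known to work with IVNS1ABP were listed as 10 symbols of splicing and export factors, cullin-3 ligase subunits and the aryl hydrocarbon receptor. In MCF10A 8 of these genes had 22 tested events, and 1 event (4.55%, against 13.8% of all tested events) was called, in SRSF2, an SR protein that acts in splicing. The median absolute change of the list was 0.00901, against 0.0239 overall. In HMLE TWIST it was 0.0147 over 29 events, against 0.0255 overall. The 104-nucleotide exon of SRSF2 (chr17:74731854-74731957) had levels of 0.125 and 0.117 in MCF10A with DMSO and 0.297 and 0.289 with emetine. The quasi-binomial model gave an adjusted p-value of 4.82e-67, and limma gave 0.0525, which ended the call. In HMLE TWIST its mean level was 0.0422 in the controls and 0.118 under emetine.

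The labels of the lines were checked with marker genes, through the reads of their skipped-exon events alone. The epithelial list summed to between 91081 and 163513 reads per MCF10A library and to between 123 and 198 per HMLE TWIST library. KRT5 made up most of the MCF10A sums, with 142764 of 160789 reads in the first control. Most of the contrast in sums thus comes from a gene not listed in HMLE TWIST. In HMLE TWIST, a line labelled as epithelial, CDH1 had at most 7 reads per library, ESRP1 at most 15 and ESRP2 at most 6, while KRT8 had 121 to 191. No event of KRT5 or KRT14 was listed there, which gives no level for these genes. The mesenchymal list summed to between 6939 and 29431 reads in MCF10A and to between 2386662 and 3957426 in HMLE TWIST. FN1 and VIM made up nearly all of the latter, over 50 and 18 events against 5 and 1 in MCF10A. A junction read can count in several events, so these sums do not measure a fold difference. CDH2 had no listed event in MCF10A. TWIST1 had 126 to 199 reads per library in HMLE TWIST and 5 to 108 in MCF10A. EPCAM and KRT18 likewise had no listed event in either line. The part of this difference between the lines in the levels of IVNS1ABP was not tested.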

How the data were processed

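RNA-seq reads were aligned with STAR 2.5.3a to GRCh37, per the submitters' processing notes. Skipped-exon events were deposited in the format of rMATS, per the file headers, with the junction counts that support inclusion or skipping as a pair of replicates per cell. The rMATS version and annotation release are not given in the sources used here. The authors' p-values and false discovery rates were deposited and not used. The deposited difference score is the authors' difference of mean inclusion levels, and recomputing it from the counts gave deviations of at most 0.00142. The 4 deposited columns of inclusion levels were otherwise not used. Each table's name gives control before emetine, and the groups numbered 1 and 2 in its header were read in that order. Values within a cell carry no replicate number, and their listed position stood in for it. Skipping counts were divided by an effective length of 99 and inclusion counts by 100 to 198.

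Events with 20 or more reads in each library and 10 or more of the rarer form were tested with a quasi-binomial model (R 4.3.3), with dispersions moderated by limma 3.58.1 and floored at 1. Groups wholly at 0 or 1 gave no dispersion. The moderation had an infinite prior weight, so all MCF10A events shared a dispersion of 1.97. P-values are two-sided, Benjamini-Hochberg adjusted over all tested events. In simulated data the log odds of 177 of 23779 MCF10A events were shifted by 1.5. The model recovered 21.5% of the 177, and 60.3% of the 63 whose level moved by 0.1 or more. Among its 38 calls 0 were false, and limma made 0 calls. All simulated events were given the same dispersion, as the model assumes. The simulation therefore cannot show false calls from events that vary more. Read minimum, length correction, model, dispersion, replicate block and omitted libraries were varied. The listed positions did not pair the libraries, with a correlation of deviations of 0.0177 across events. The members, gene lists and tests were chosen with earlier results of these data known. The named genes are IVNS1ABP, the 5 genes nearest to it in pattern, and up to 4 genes per list with the largest called change in MCF10A.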

Additional observations from a re-analysis of the deposited data

Results flagged for a closer look

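The 132-nucleotide exon of KLHL20 had changes of opposite sign in the 2 lines, with no overlap between control and emetine libraries in either. Such a lack of overlap is common, at 67.4% of all tested events in MCF10A, and its share in HMLE TWIST was not counted. In MCF10A its level was 0.374 and 0.241 with DMSO and 0.684 and 0.667 with emetine, a change of 0.368. In HMLE TWIST it was 0.406 and 0.446 with DMSO and 0.39 and 0.338 with emetine, a change of -0.0617. The difference between the lines was not tested.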

How the results depend on the processing

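The rise of the 141-nucleotide exon in MCF10A kept its direction and its call under all 10 alternatives run for it, with changes from 0.631 to 0.694 and a highest adjusted p-value of 0.0193. With a replicate block, in which the listed position stood for the replicate number, the change was 0.659 with an adjusted p-value of 5.52e-127, and the count of changed events over the MCF10A table went from 3533 to 3609. Leaving out 1 library at a time, with the lone library of a group assumed to vary like the other groups, gave 0.631 to 0.687 in MCF10A. The range in HMLE TWIST was 0.9 to 0.925, and there the value without length correction was 0.908. The HMLE TWIST exon was listed with 1 flanking pair, so that alternative could not differ. Some MCF10A alternatives were also bound to agree for the 141-nucleotide exon. With at least 342 reads per library, the minima of 10 and 50 reads could not alter its counts or its change. The length correction does not enter its p-value. The number of changed IVNS1ABP events in MCF10A was 1 to 2 with a library left out, and 2 without the second emetine library, through exon 7. For the kelch relatives it was 3 to 6 with a library left out, 2 with limma and 1 with the event's own dispersion where larger. For the partners limma gave 0, with SRSF2 at an adjusted p-value of 0.0525. Over the whole MCF10A table limma called 2012 events and the event's own dispersion 2082. With 2 libraries per group, the spread of a single event is known poorly, and the few direct reads under emetine in HMLE TWIST, 14 and 6, limit how precisely its highest levels are known.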
